A study of Mus musculus with 22 samples.

Results

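The comparison described here sets lung-resident against circulating descendants of tissue-resident memory CD4+ T cells in mice. Ex-TRM cells are cells that once belonged to the tissue-resident memory (TRM) pool, and the RNA labels divide them into TissueExTRM and CirculatingExTRM, with 2 libraries in each group. These 4 libraries were chosen by group label from 22 samples, of which 8 are RNA-seq libraries and 14 are chromatin accessibility samples (not analysed here). The other 4 RNA libraries come from ex-Tcirc cells, descendants of circulating memory cells, as 2 tissue (TissueExTcirc) and 2 circulating (CirculatingExTcirc) libraries. They share no library with the ex-TRM comparison.

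All RNA samples are labelled as coming from female Balb/c mice of 6 to 10 weeks. The series' design text describes effector Th2 cells grown from OT-II creERT2 or DO11.10 T cell receptor transgenic mice, both specific for ovalbumin. The recipients, sensitized with ovalbumin, were BALB/c-nu/nu mice or C57BL/6 mice carrying Ly5.2. In a first experiment tamoxifen was given. CD69 and congenic markers then served to sort tissue cells from lung and circulating ex-TRM cells from blood on day 49. In a second experiment, lung TRM and circulating memory cells of DO11.10 origin were transferred again into naive BALB/c-nu/nu mice and collected on day 71, after ovalbumin rechallenge. Between 3000 and 50000 cells were sorted per sample. The RNA labels do not say which experiment a library comes from, and they give lung as the source of every library, the circulating ones included. The nu/nu recipients are athymic and have few T cells of their own. Nothing in the labels says whether the replicates came from separate animals, so any spread between them may be technical.

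Resident memory T cells stay in a tissue partly because CD69 holds back S1PR1, the receptor that draws lymphocytes along sphingosine-1-phosphate into lymph and blood. The transcription factor KLF2 drives S1pr1 and other egress genes, and resident cells usually keep both low. Th2 memory cells in allergic lung are known for GATA3, the alarmin receptor ST2 (Il1rl1) and the chemokine receptor CCR8.

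The CirculatingExTRM replicate 1 library was nearly empty. It listed 917 of 55291 gene names above 0, against 37471 and 37894 in the TissueExTRM libraries and 29688 in CirculatingExTRM replicate 2, and only 1 of 12 housekeeping genes was above 0 in it. Among the 132 genes described below as higher in circulation it listed 1 above 0. Circulating values are therefore those of replicate 2 alone and are given descriptively. Relative depth, read from the smallest steps in FPKM (fragments mapped to a gene, divided by its length and by the library's mapped fragments), was 90.1% of TissueExTRM replicate 1 in TissueExTRM replicate 2, 25.2% in CirculatingExTRM replicate 2 and 24.1% and 57.0% in the 2 TissueExTcirc libraries. The 2 CirculatingExTcirc libraries were sparse, with 12785 and 7042 names above 0. One RNA name, Gm23935, held 27.5% to 28.5% of the FPKM sum in each of the 3 usable ex-TRM libraries.

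The 3 usable ex-TRM libraries carried the markers of CD4+ T cells. All 12 CD4+ T cell markers were above 0 in each, and their summed level was 4982 and 4892 FPKM in tissue and 5338 FPKM in circulation. Cd4 itself stood at 97.7 and 109 FPKM in the tissue libraries and 139 FPKM in the circulating library. Markers of other cells were low. The 10 B cell markers summed to 22.6 and 55.2 FPKM in tissue and 38.9 FPKM in circulation, the 14 macrophage and monocyte markers to 124, 183 and 104 FPKM, and 8 erythroid markers to 4.48 and 2.58 FPKM in tissue and 0 in circulation. The 12 alveolar epithelial markers summed to 16.9 and 11.9 FPKM in tissue and to 41.7 FPKM in circulation, where 8 of the 12 were at 0 and Sftpc, a surfactant gene, gave 22.97 FPKM (3.48 and 0 in tissue). The part of these other cells in the results was not tested.

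A mean of at least 20 FPKM over the 3 usable libraries left 3029 genes. A gene is called past the fold where the circulating library lay at least 2-fold above or below both tissue libraries, on the scale of FPKM plus 1. By this measure 129 genes (4.26%) were higher in tissue and 132 (4.36%) were higher in circulation, and 2768 were not past the fold. Among the 2157 names listed as protein-coding, 51 (2.36%) were higher in tissue and 76 (3.52%) in circulation. The median log2 difference, tissue minus circulating, was -0.03 over all genes. The median absolute difference was 0.36, set against 0.15 between the 2 tissue libraries. In bulk samples of this kind, fewer cells of a type and less RNA per cell cannot be told apart.

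No gene passed a test across all genes. With 1 circulating ex-TRM library, the spread was taken from the other 3 RNA groups in a limma fit of 7 libraries, and 0 of 3029 genes (0%) reached an adjusted p under 0.05. The smallest adjusted p was 0.46, and 141 genes had an unadjusted p under 0.05. A fit of the 3 ex-TRM libraries alone, with 1 residual degree of freedom, called 268 genes, with 116 on the tissue side and 152 on the circulating side. The differences below are therefore those between 3 libraries, and "higher" and "lower" refer to these libraries.

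**Figure D1:**
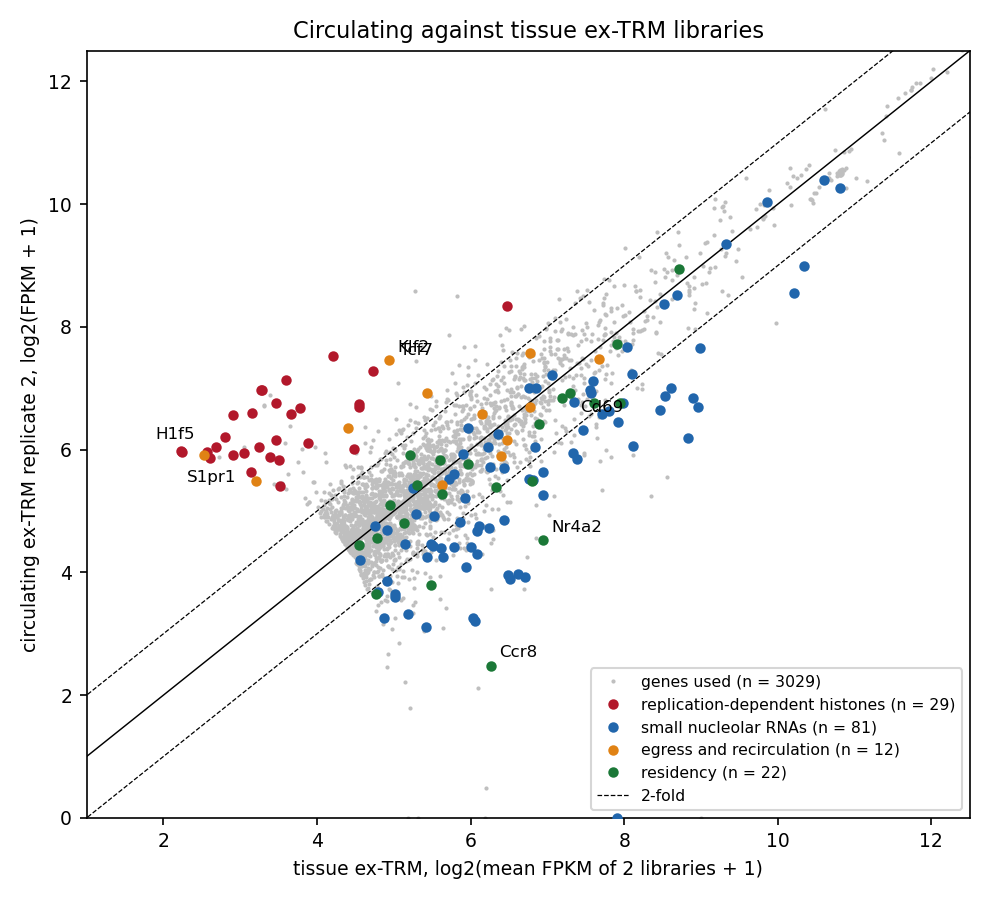
Each point is a gene, placed by the mean of the 2 TissueExTRM libraries (x axis, log2 of FPKM plus 1) and by CirculatingExTRM replicate 2 (y axis, same scale). The solid line marks equal levels and the dashed lines 2-fold, and the slanted lower left edge is the minimum mean of 20 FPKM. The 29 histone genes lie above the upper dashed line, most of the small nucleolar RNAs lie below the solid line, and Klf2 and S1pr1 lie on the side opposite to Ccr8 and Nr4a2.

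Genes of egress and recirculation were among those higher in circulation. Of the 17 genes of this list in the files, 12 passed the minimum; 5 of them (Klf2, S1pr1, Klf3, Gpr183 and Ripor2) were higher in circulation, beside 4.36% of all genes, and none was higher in tissue. S1pr1 and Klf3 had tissue means under 20 FPKM and passed the minimum through the circulating library. With no minimum, 7 of 17 were past the fold on the circulating side, against 5.12% of 41699 names. The list median was -0.61 on the log2 scale, beside -0.03 for all genes.

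Klf2 stood at 30.96 and 28.4 FPKM in the tissue libraries and 174 FPKM in the circulating library. The circulating value was 5.87-fold above the tissue mean. That it lay outside both tissue libraries follows from the rule for genes past the fold. On the log2 scale the difference was -2.52 with a limma standard error of 0.35 (adjusted p = 0.766). The ex-Tcirc libraries gave 26.1 and 20.9 FPKM in tissue and 183 and 159 FPKM in circulation, so all 3 of these circulating libraries lay above all 4 tissue libraries.

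S1pr1, the egress receptor itself, was at 4.16 and 5.34 FPKM in tissue and 59.5 FPKM in circulation, a 12.53-fold difference. The circulating value, from replicate 2 alone, lay above both tissue values, as the rule requires, and the nearly empty replicate 1 listed S1pr1 at 0. In the ex-Tcirc libraries S1pr1 was at 3.83 and 2.99 FPKM in tissue and at 46.4 FPKM and 0 in circulation; with that 0 in the fit, the limma standard error was 2.35 around a log2 difference of -3.40 (adjusted p = 1). The related receptor S1pr4 stayed under the minimum, at 10.4 and 9.17 FPKM in tissue and 19.1 FPKM in circulation.

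Klf3, a second Krüppel-like factor, was at 9.399 and 7.08 FPKM in tissue and 44.1 FPKM in circulation. Gpr183, an oxysterol receptor that positions lymphocytes in follicles and tissue, was at 17.7 and 22.8 FPKM in tissue and 80.3 FPKM in circulation. Ripor2, an inhibitor of RhoA that acts in T cell polarity and migration, was at 42.4 and 42.1 FPKM against 121 FPKM. All 3 genes were past the fold, which by its rule places the circulating value at least 2-fold above the higher tissue library. Ccr7, a chemokine receptor, was under the minimum, at 1.503 and 2.48 FPKM in tissue and 17.8 FPKM in circulation. Il7r, the interleukin-7 receptor chain, lay between the tissue libraries (121 and 94.9 FPKM) at 102 FPKM in circulation, and Cxcr4 was slightly higher in tissue (84.7 and 90.4 FPKM against 70.7 FPKM).

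Krüppel-like factors bind CACCC-type boxes, so the promoters of Klf2 and Klf3 are shown with every CACCC, read on either strand, in capitals. The windows run 5′ to 3′ from 250 bases before to 50 bases after the start in the RefSeq table of GRCm38.p6, at chr8:72318812-72319111 on the plus strand and chr5:64803271-64803570 on the plus strand.
Klf2: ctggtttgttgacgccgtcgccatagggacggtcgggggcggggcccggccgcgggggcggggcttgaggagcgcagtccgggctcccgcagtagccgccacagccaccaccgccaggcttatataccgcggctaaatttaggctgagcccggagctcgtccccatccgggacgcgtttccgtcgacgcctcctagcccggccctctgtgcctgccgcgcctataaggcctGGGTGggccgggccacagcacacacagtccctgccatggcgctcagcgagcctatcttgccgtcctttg
Klf3: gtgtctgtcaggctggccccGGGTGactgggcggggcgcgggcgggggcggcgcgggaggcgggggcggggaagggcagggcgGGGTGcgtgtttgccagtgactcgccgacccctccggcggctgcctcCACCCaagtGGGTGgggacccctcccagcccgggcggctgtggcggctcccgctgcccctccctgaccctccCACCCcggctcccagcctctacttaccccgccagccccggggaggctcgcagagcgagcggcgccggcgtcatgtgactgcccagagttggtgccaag
Klf2 held 1 such box and Klf3 held 5. A CACCC on either strand was present in 56.7% of all 27025 RefSeq windows of this length, in 64.3% of 1762 windows of protein-coding genes used, in 31 of 37 windows (83.8%) of non-histone protein-coding genes higher in circulation and in 28 of 41 (68.3%) of those higher in tissue. At least 2 copies were present in 25.1% of all windows and 29.2% of those of protein-coding genes used. The shares were 32.4% for non-histone protein-coding genes higher in circulation and 19.5% for those higher in tissue. A match of 5 letters is a description of the window and not a binding site.

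The memory and quiescence factors had few members past the fold. Of 13 genes used, 1 was higher in circulation and 1 in tissue, beside 4.36% and 4.26% of all genes, with a median of 0.16. With no minimum, 2 of 20 were past the fold in circulation and 2 in tissue (backgrounds 5.12% and 7.57%). Tcf7, which encodes TCF-1, a factor of self-renewing memory and naive T cells, stood at 56.1 and 57.00 FPKM in tissue and 165 FPKM in circulation. That difference of -1.53 (limma standard error 0.36, adjusted p = 0.993) recurred in the ex-Tcirc libraries, at 34.99 and 43.4 FPKM in tissue and 145 and 106 FPKM in circulation. Its relative Lef1 differed little, at 20.1 and 17.5 FPKM against 25.2 FPKM. Satb1, a chromatin organiser of T cells, was just under the fold, at 45.8 and 49.3 FPKM in tissue and 92.4 FPKM in circulation. Ikzf1 (Ikaros) went the other way, with 139 and 131 FPKM in tissue and 61.3 FPKM in circulation.

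**Figure D2:**
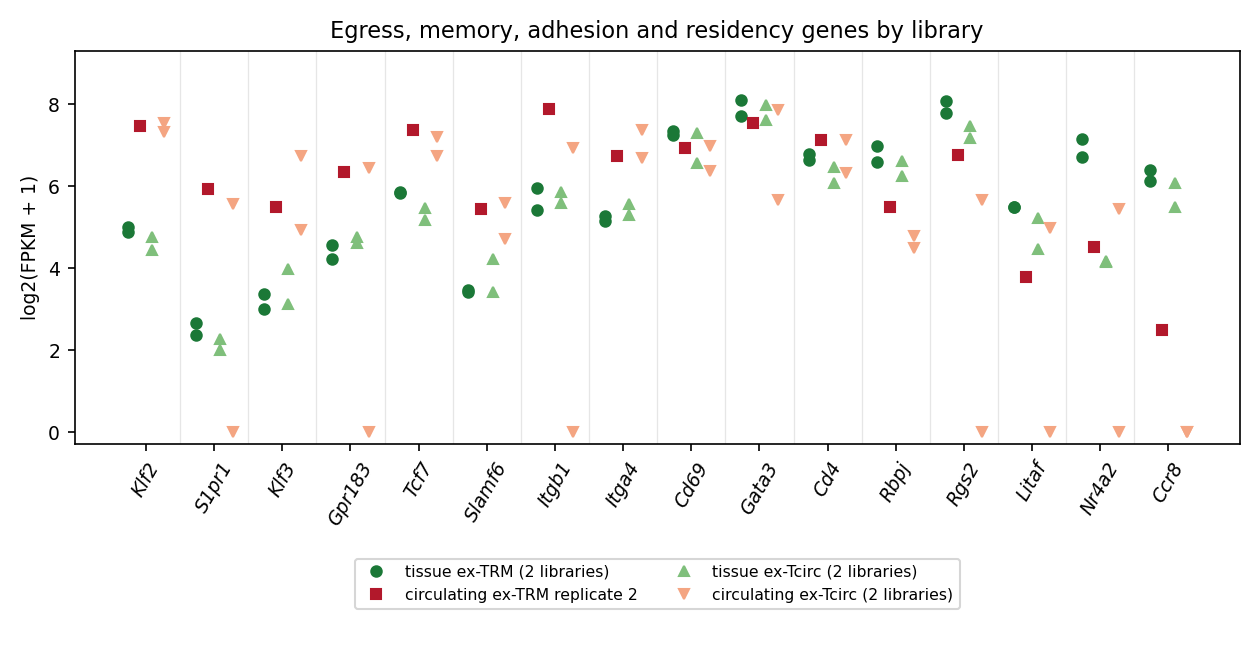
The y axis gives log2 of FPKM plus 1 for 16 genes, with 1 symbol per library: circles for tissue ex-TRM, squares for CirculatingExTRM replicate 2, and triangles pointing up or down for tissue and circulating ex-Tcirc. The square lies above both circles from Klf2 to Itga4 and below both from Rbpj to Ccr8, and Cd69, Gata3 and Cd4 differ less. Symbols at 0 are genes listed at 0.

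On the tissue side, the residency list had 22 genes used of 28 in the files. Of these, 5 (Ccr8, Nr4a2, Litaf, Rbpj and Rgs2) were higher in tissue, beside 4.26% of all genes, and none in circulation, and the list median was 0.34. With no minimum, 6 of 28 were past the fold on the tissue side, against 7.57% of 41699 names. Cd69, the marker by which resident cells were sorted according to the design text, was not past the fold in RNA: it stood at 162 and 149.6 FPKM in tissue and 120.1 FPKM in circulation, a log2 difference of 0.37. Itgae, which encodes the integrin chain CD103, was low in all 3 libraries (2.58, 1.704 and 4.57 FPKM).

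Ccr8 had the largest difference on the tissue side among protein-coding genes listed above 0 in circulation. It was at 83.6 and 68.6 FPKM in tissue and 4.59 FPKM in circulation, 16.6-fold lower, and both TissueExTcirc libraries resembled the tissue ex-TRM libraries at 43.7 and 66.6 FPKM while both CirculatingExTcirc libraries listed it at 0. The log2 difference was 3.78 with a limma standard error of 0.43 (adjusted p = 0.46). Cxcr6, another chemokine receptor of lung-resident T cells, did not reach the fold (88.8 and 70.4 FPKM against 41.00 FPKM).

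Rbpj, the DNA-binding partner of Notch, was at 124 and 95.7 FPKM in tissue and 43.99 FPKM in circulation. It gave 74.2 and 96.1 FPKM in tissue ex-Tcirc cells and 21.4 and 26.5 FPKM in circulating ones, so the 4 tissue libraries lay above the 3 circulating libraries. Litaf, a regulator of endosomal sorting, was at 43.8 and 43.9 FPKM in tissue and 12.8 FPKM in circulation. Rgs2, which dampens G protein signals, was at 269.6 and 219 FPKM against 108 FPKM. Its relative Rgs1 was closer, at 114 and 122 FPKM against 84.8 FPKM.

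The orphan nuclear receptor Nr4a2, an immediate early gene of antigen receptor signals, was at 141 and 104 FPKM in tissue and 22.01 FPKM in circulation (5.56-fold). The TissueExTcirc libraries did not share the high level, at 16.8 and 17.2 FPKM. Nr4a1 was close to even (254, 224 and 209.7 FPKM), and Nr4a3 was 218 and 169 FPKM in tissue and 107 FPKM in circulation without reaching the fold. Over the immediate early list, 34 of 41 genes were used, and 2 (Nr4a2 and Rgs2) were past the fold, both in tissue. This is near the 4.26% of all genes, and with no minimum 3 of 41 (7.32%) were past it in tissue beside 7.57% of all names. Of the 34 differences, 28 were positive, with a median of 0.34; Fos, for example, was at 677 and 554 FPKM against 381 FPKM, and Jun at 166 and 132 FPKM against 81.00 FPKM. In the heat shock list 10 of 12 differences were positive (median 0.39) and none was past the fold. Handling of the samples was not recorded in the labels, and its part in these lists was not tested.

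The Th2 programme leaned to tissue in a few of its members. Of 14 genes used, 3 (Ccr8, Calca and Ecm1) were higher in tissue, beside 4.26% of all genes, and none in circulation, and the median was 0.42. With no minimum, 11 of 30 genes above 0 in any of the 3 libraries were past the fold in tissue (background 7.57%), among them cytokines listed at 0 in circulation. Gata3, the master regulator of the lineage, was at 274 and 209.7 FPKM in tissue and 186 FPKM in circulation and was not past the fold. Il4 was at 7.85 and 11.9 FPKM in tissue, Il5 at 14.3 and 9.22 FPKM and Il13 at 6.66 and 6.55 FPKM; all 3 cytokine genes were listed at 0 in the circulating library, whose depth was 25.2% of that of TissueExTRM replicate 1.

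Calca, which encodes calcitonin gene-related peptide, was at 110.1 and 41.5 FPKM in tissue and 12.2 FPKM in circulation. The tissue libraries themselves differed by more than 2-fold here. Ecm1, a secreted protein needed by Th2 cells to leave lymph nodes, was at 54.6 and 56.1 FPKM in tissue and 25.1 FPKM in circulation, and at 64.9 and 62.96 against 16.8 and 21.3 FPKM in the ex-Tcirc libraries. Il1rl1 was at 112 and 64.04 FPKM in tissue and 34.5 FPKM in circulation; the lower tissue library was within 2-fold. Csf2 was not higher in tissue (44.4 and 34.4 FPKM against 48.2 FPKM), nor was Maf (36.1, 35.9 and 37.7 FPKM).

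Among adhesion genes, the chains of 1 integrin were higher in circulation. In the integrin and adhesion list, 12 genes were used; Itga4 and Itgb1 were higher in circulation (4.36% of all genes used were) and Itgav in tissue (4.26% of all genes). The median was -0.74, but it was -0.08 over the 19 members with a mean of at least 5 FPKM, and with no minimum 4 of 25 were past the fold in circulation and 1 in tissue. Itga4 and Itgb1 encode the 2 chains of VLA-4, which binds VCAM-1 on inflamed endothelium. Itga4 was at 37.6 and 34.6 FPKM in tissue and 106 FPKM in circulation, and at 37.96 and 46.5 against 101 and 164 FPKM in the ex-Tcirc libraries. Itgb1 was at 42.02 and 61.4 FPKM in tissue and 233 FPKM in circulation (4.51-fold), with 1 CirculatingExTcirc library at 121 FPKM and the other at 0. Itgav, the alpha chain of vitronectin-binding and TGF-beta-activating integrins, was at 27.3 and 29.6 FPKM against 10.7 FPKM. The LFA-1 chains did not separate: Itgb2 gave 80.9, 91.1 and 84.7 FPKM, and Itgal gave 66.7, 70.2 and 68.6 FPKM.

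In the actin and motility list 48 of 49 genes were used, and 44 of the 48 differences were negative (higher in circulation), with a median of -0.59. In circulation 6 (Flna, Myo1f, Arpc1b, S100a6, S100a10 and Lgals1) were past the fold, beside 4.36% of all genes, and none was past it in tissue. Flna, the actin cross-linker filamin A, was at 78.1 and 90.8 FPKM in tissue and 197 FPKM in circulation, and again at 216 and 178 FPKM in the CirculatingExTcirc libraries. Myo1f, a class I myosin, was at 23.4 and 27.7 FPKM against 70.04 FPKM. S100a10, a partner of annexin A2, was at 244 and 271 FPKM against 625 FPKM, and Lgals1 (galectin-1) at 142 and 140.4 FPKM against 352 FPKM. These 4 genes were taken as past the fold, so by that rule the circulating value lay outside both tissue libraries. Actb itself was at 1016 and 1262 FPKM in tissue and 1535 FPKM in circulation, not past the fold.

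Receptors of costimulation and inhibition had 15 genes used, of which 4 (Slamf6, Tnfrsf4, Vsir and Tigit) were higher in circulation, beside 4.36% of all genes, and none in tissue. Under both other scalings 3 were past the fold, and the median, -0.37 here, was -0.20 over the 19 members with a mean of at least 5 FPKM. Of the 15, 3 had a tissue mean under 20 FPKM. Slamf6, which is often found with TCF-1 on self-renewing T cells, stood at 9.63 and 9.996 FPKM in tissue and 42.5 FPKM in circulation. Tnfrsf4 (OX40), a costimulatory receptor, was at 44.98 and 46.4 FPKM against 103 FPKM. Il2rb, the shared beta chain of the interleukin-2 and interleukin-15 receptors, was at 38.3 and 48.7 FPKM in tissue and 100.2 FPKM in circulation. It was the only past-fold gene of the 24 cytokine receptor and Stat-Socs genes used, near the 4.36% of all genes. Under both other scalings 0 genes of that list were past the fold. The T cell receptor complex and its signalling genes, 32 of 33 used, had no member past the fold in either direction and a median of -0.03; Cd3e was at 229, 243 and 237 FPKM.

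**Figure D3:**
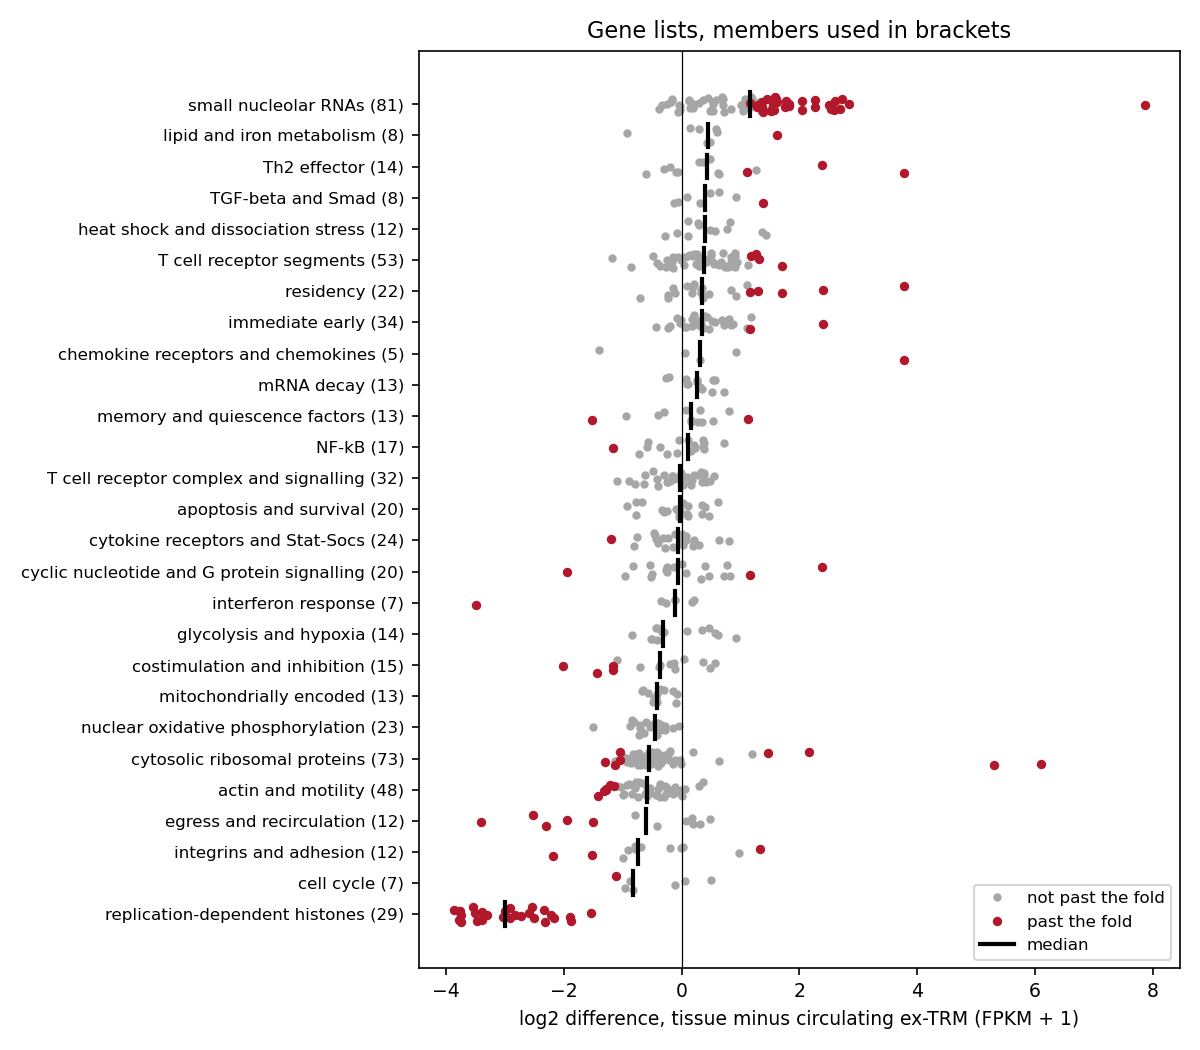
Each row is a list of genes with the number of members used in brackets, and each point is 1 member at its log2 difference, tissue minus circulating ex-TRM (x axis). Red points are past the fold, black bars are list medians, and points are spread vertically at random for legibility. The histone list lies wholly to the left, with a median of -2.99, and the small nucleolar RNAs lie mostly to the right, with a median of 1.17.

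A further group on the circulating side were the replication-dependent histones, genes that are transcribed in S phase to package new DNA and whose mRNAs mostly lack a poly(A) tail. The files hold 57 of these genes; 29 passed the minimum and 28 did not. All 29 were past the fold in circulation, but 24 of them had a tissue mean under 20 FPKM and so had to differ to pass. Over all 57 genes with no minimum, 54 were above 0 in at least 1 of the 3 libraries, the circulating value lay above both tissue values for 52, and 49 were past the fold, all in circulation (background 5.12%). Summed over the 57 genes, the histones stood at 391 and 582.4 FPKM in the tissue libraries and 3353 FPKM in the circulating library.

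Summed over all members in the files, with no minimum, H2A stood at 104.2 and 181.1 FPKM in tissue and 1287 FPKM in circulation (15 genes), and H2B at 42.5 and 72.5 against 538.9 FPKM (14 genes). H3 stood at 43.1 and 67.8 against 473.4 FPKM (12 genes), and H4 at 83.5 and 115.5 against 483.3 FPKM (10 genes). The linker histones stood at 118.1 and 145.6 against 570.1 FPKM (6 genes). Within every class the circulating sum was above both tissue sums, and TissueExTRM replicate 2 was above replicate 1. With no minimum, the members past the fold in circulation were 13 of 14 H2A genes above 0 in any of the 3 libraries, 11 of 13 H2B genes, 10 of 11 H3 genes, 10 of 10 H4 genes and 5 of 6 linker histone genes (background 5.12%).

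H1f5, a linker histone, had the largest difference among the 15 genes taken by size on the circulating side. It stood at 1.82 and 5.54 FPKM in tissue and 61.9 FPKM in circulation (16.8-fold, with a limma standard error of 0.69 around a log2 difference of -3.87). The CirculatingExTcirc libraries were also high, at 116 and 116 FPKM, against 3.86 and 6.14 FPKM in TissueExTcirc. H2bc3, an H2B gene, was at 2.74 and 4.69 FPKM against 61.3 FPKM, and H3c2, an H3 gene, at 4.08 and 8.93 FPKM against 93.8 FPKM. The linker histone H1f2 and the H4 gene H4c4 had tissue means over or near the minimum: H1f2 was at 80.5 and 95.7 FPKM against 324 FPKM, and H4c4 at 19.2 and 23.4 FPKM against 63.3 FPKM. Histone genes of a class are near-identical in sequence, so how reads were divided among single members is uncertain, which bears less on the class sums.

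Because these genes differed together, the promoters of H2bc3, H1f5 and H3c2 are shown, with the CCAAT box, the TATAAA box and the octamer ATTTGCAT in capitals on either strand. The windows, from the RefSeq table of GRCm38.p6, lie at chr13:23746484-23746783 (plus strand), chr13:21780576-21780875 (minus strand) and chr13:23752095-23752394 (plus strand).
H2bc3: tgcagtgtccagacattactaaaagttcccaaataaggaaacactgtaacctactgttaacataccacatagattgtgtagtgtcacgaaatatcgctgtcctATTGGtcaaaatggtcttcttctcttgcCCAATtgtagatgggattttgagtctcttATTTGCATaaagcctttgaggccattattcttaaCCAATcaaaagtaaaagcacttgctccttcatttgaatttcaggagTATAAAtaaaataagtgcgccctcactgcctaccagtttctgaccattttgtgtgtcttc
H1f5: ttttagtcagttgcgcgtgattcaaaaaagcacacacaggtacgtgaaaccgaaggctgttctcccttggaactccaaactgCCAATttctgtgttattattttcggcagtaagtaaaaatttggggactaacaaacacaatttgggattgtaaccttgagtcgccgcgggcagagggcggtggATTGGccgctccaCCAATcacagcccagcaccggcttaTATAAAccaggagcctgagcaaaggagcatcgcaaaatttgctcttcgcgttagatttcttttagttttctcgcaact
H3c2: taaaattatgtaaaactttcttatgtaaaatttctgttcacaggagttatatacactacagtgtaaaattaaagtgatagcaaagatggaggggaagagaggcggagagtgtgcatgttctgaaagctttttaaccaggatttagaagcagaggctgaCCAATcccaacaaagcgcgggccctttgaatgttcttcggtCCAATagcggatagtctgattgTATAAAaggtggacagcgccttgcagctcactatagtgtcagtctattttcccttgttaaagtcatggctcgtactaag
H2bc3 and H1f5 held 3 CCAAT boxes each and H3c2 held 2, each window held 1 TATAAA, and H2bc3 held the octamer. CCAAT was present in 23 of 27 windows (85.2%) of histones past the fold and in 21 of 24 (87.5%) of histones under the minimum, against 37.9% of all 27025 windows. At least 2 copies were present in 70.4% of the windows of histones past the fold, 70.8% of those under the minimum and 12.2% of all windows. TATAAA was in 70.4% and the octamer in 22.2% of the windows of histones past the fold, against 14.2% and 1.8% of all windows. These boxes are known parts of histone promoters, and a match is a description of the window only.

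**Figure D4:**
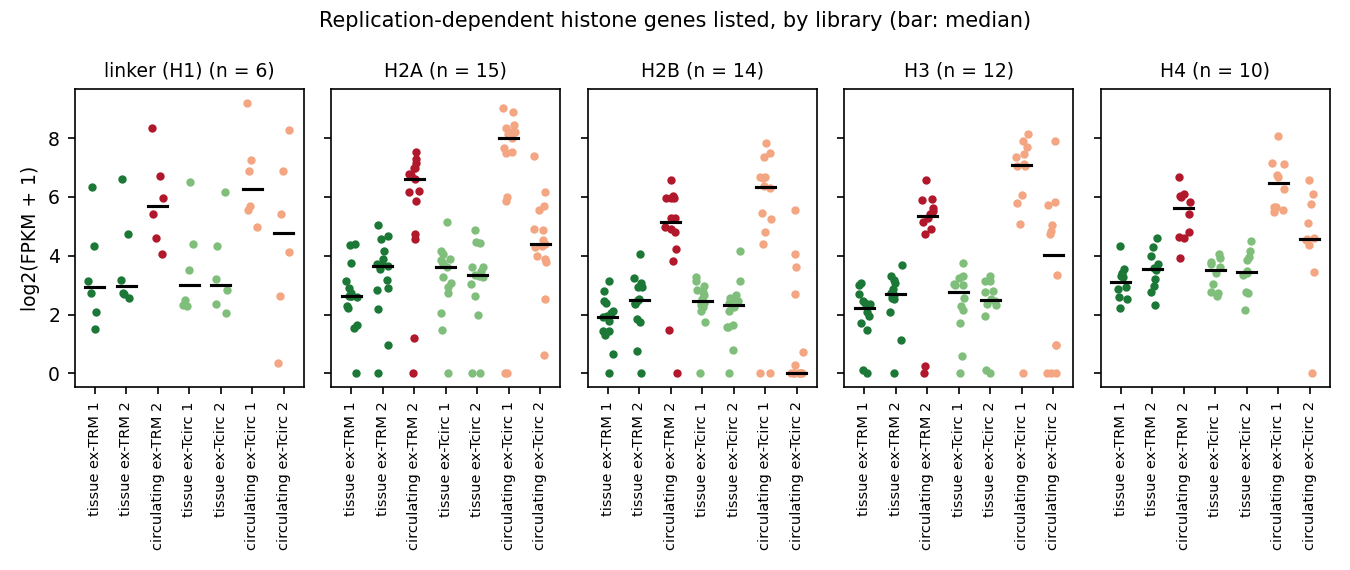
Panels are the 5 histone classes with the number of genes in the files, each point is a gene in 1 library at log2 of FPKM plus 1 (y axis), and bars are medians. In each panel the points of CirculatingExTRM replicate 2 lie above those of all 4 tissue libraries by their medians, as do those of CirculatingExTcirc replicate 1.

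Cell cycle genes other than histones were mostly under the minimum. Of 48 genes 7 were used, and 1 was past the fold, in circulation, beside 4.36% of all genes. This was Hmgb2, a chromatin protein abundant in dividing cells, at 62.8 and 59.1 FPKM in tissue and 132 FPKM in circulation. With no minimum, 46 genes were above 0 in any of the 3 libraries, of which 17 were past the fold in circulation and 6 in tissue (backgrounds 5.12% and 7.57%). Mki67, the proliferation antigen, was at 3.65 and 8.04 FPKM in tissue and 44.97 FPKM in circulation, and Top2a, the topoisomerase of dividing cells, at 3.34 and 6.41 FPKM against 21.2 FPKM. Stmn1 and Rrm2, a microtubule regulator and a ribonucleotide reductase subunit, stood at 22.4 and 21.2 FPKM in circulation, above 3.34 and 3.06 and above 3.13 and 3.38 FPKM in tissue. Pcna, the replication clamp, was level across the 3 libraries (38.8, 43.7 and 39.8 FPKM), and Cdk1 was listed at 0 in the circulating library. The genes Mki67, Top2a, Stmn1, Rrm2, Pcna and Cdk1 were singled out after their values were seen.

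Further genes far from even on the circulating side included Ifi27l2a, an interferon-inducible mitochondrial protein, at 8.004 and 7.94 FPKM in tissue and 99.4 FPKM in circulation. It was the only one of 7 interferon response genes used that was past the fold, beside 4.36% of all genes higher in circulation. With no minimum, 8 of 39 were past the fold in circulation and 6 in tissue (backgrounds 5.12% and 7.57%). Cdc25b, a phosphatase that activates cyclin-dependent kinases, was at 11.5 and 11.5 FPKM against 82.2 FPKM. Rasa3 and Rasgrp2, which act on the Rap1 switch that controls integrins, were at 9.74 and 12.2 against 68.3 FPKM and at 27.5 and 37.02 against 135 FPKM. Cdc25b, Rasa3 and Rasgrp2 were also singled out after their values were seen.

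On the tissue side, Hnrnpll, a splicing regulator of Ptprc in T cells, stood at 42.5 and 39.2 FPKM in tissue and 7.29 FPKM in circulation. Lars2, the mitochondrial leucyl-tRNA synthetase, was the most abundant protein-coding gene past the fold there, at 984 and 1021 FPKM against 268 FPKM; TissueExTcirc replicate 1, the tissue library of like depth to the circulating one, was also low at 244 FPKM, and replicate 2 was at 1124 FPKM. Plin2, which coats lipid droplets, was at 27.7 and 30.1 FPKM against 8.67 FPKM. Skil, a feedback inhibitor of Smad signalling, was at 60.5 and 60.98 FPKM against 22.6 FPKM. It was the only past-fold gene of 8 TGF-beta and Smad genes used, beside 4.26% of all genes higher in tissue. With no minimum, 4 of 17 were past the fold in tissue and 0 in circulation (backgrounds 7.57% and 5.12%). Ctla2a, a cysteine protease inhibitor, was at 139 and 132 FPKM against 36.8 FPKM. St3gal6, a sialyltransferase, was at 28.8 and 36.03 FPKM against 6.23 FPKM, and Slc37a3, Akap8l and Pard3 (log2 differences of 1.75, 1.75 and 1.71) completed this set. For Ptprcap, Rps23 and Rps27a the circulating library listed 0, and Ptprcap was also at 0 in all 4 ex-Tcirc libraries against 20.5 and 50.4 FPKM in tissue ex-TRM cells.

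Small nucleolar RNAs, which guide the chemical modification of ribosomal RNA, made up a large share of the genes higher in tissue. In the list, 81 of 147 names were used, 34 were higher in tissue and none in circulation, beside 4.26% and 4.36% of all genes. Of the 81 differences, 71 were positive, with a median of 1.17. Of the 81, 19 had a circulating value under 20 FPKM. With no minimum, 48 of 146 were past the fold in tissue and 5 in circulation (backgrounds 7.57% and 5.12%). The wider set of 855 names of snoRNA biotype above 0 in any of the 3 libraries, most of them under the minimum, showed nearly equal counts with no minimum, 112 (13.1%) in tissue and 105 (12.28%) in circulation. By class of the list, 26 of 48 box C/D (Snord) genes, 7 of 26 box H/ACA (Snora) genes and 1 of 7 Cajal body (Scarna) genes were past the fold. All were on the tissue side, where 4.26% of all genes lay.

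Snord57 was at 562 and 347 FPKM in tissue and 72.2 FPKM in circulation, and Snora81 at 525 and 427 FPKM against 113 FPKM. Snord118 was not different in that way, at 118 and 95.7 FPKM against 127 FPKM. The tissue ex-TRM libraries themselves were apart: the median of the 81 was 118 FPKM in replicate 1, 71.6 FPKM in replicate 2 and 47.7 FPKM in the circulating library. It was 125 and 127 FPKM in TissueExTcirc, at 24.1% and 57.0% relative depth, and 24.1 FPKM and 0 in CirculatingExTcirc. The part of depth in these levels was not tested. FPKM of RNAs this short depends strongly on the length model used, and comparisons here are of each RNA with itself. Snord57, Snora81 and Snord118 were chosen after their values were seen.

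**Figure D5:**
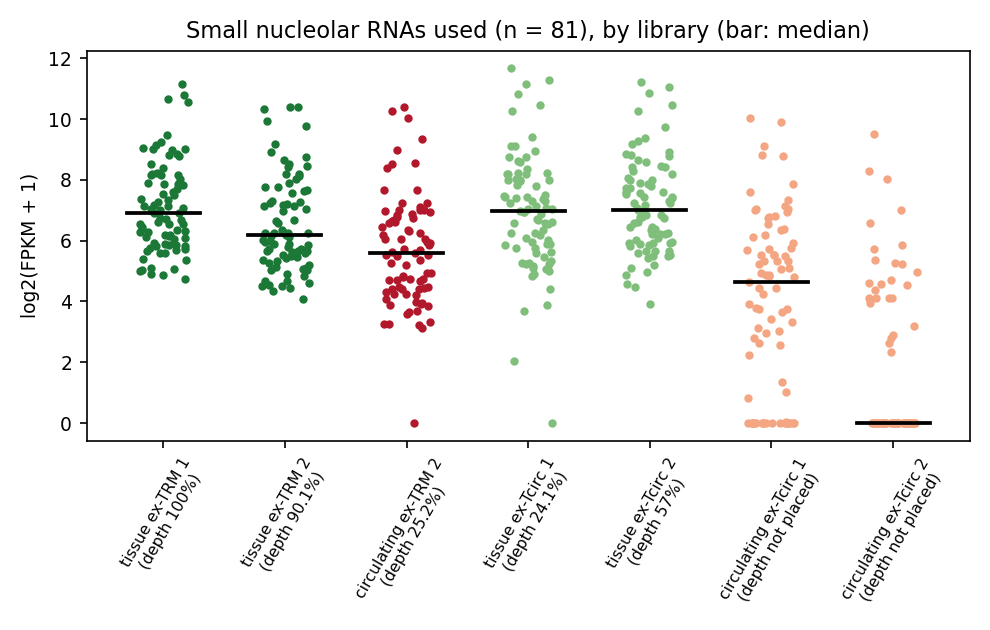
Each point is 1 of the 81 small nucleolar RNAs used, at log2 of FPKM plus 1 (y axis) in each of 7 libraries, with bars at the medians and the relative depth under each name. The 4 tissue libraries have higher medians than the circulating ones, and the median of CirculatingExTcirc replicate 2 is 0.

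Genes of protein synthesis and respiration were mostly a little higher in circulation, few of them past the fold. For cytosolic ribosomal proteins 73 genes were used and 66 differences were negative (median -0.55), with 4 past the fold on each side (backgrounds 4.26% and 4.36%). Rplp0, the ribosomal stalk protein, was at 95.6 and 104 FPKM in tissue and 248 FPKM in circulation, whereas Rpl23a was at 207 and 348 against 59.3 FPKM. Ribosomal protein genes share reads with many processed pseudogenes, so single members are uncertain. Of 87 ribosomal pseudogene names used, 12 were higher in circulation and 1 in tissue (backgrounds 4.36% and 4.26%). Of 23 nuclear genes of oxidative phosphorylation used, all 23 differences were negative (median -0.46; 22 of 23 after scaling to the same protein-coding sum), and so were all 13 mitochondrially encoded genes (median -0.42), with none past the fold in either list. Of the 23, 5 had a tissue mean under 20 FPKM. With no minimum, 9 of 72 oxidative phosphorylation genes were past the fold in tissue and 1 in circulation. Among all names the shares were 7.57% and 5.12%, and among protein-coding names the tissue share was 10.63%. Of the 73 members in the files, the circulating value lay above both tissue values for 46 and below both for 17.

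The ex-Tcirc libraries allow the same contrast in other cells. Over the 3029 genes, 55 (1.82%) had both CirculatingExTcirc libraries at least 2-fold above both TissueExTcirc libraries, and 31 of them were among the 132 genes higher in circulating ex-TRM cells (23.5% of the 132 and 56.4% of the 55). The shared genes included Klf2, Tcf7, Itga4, Il2rb, Flna and Myo1f and 14 genes of the histone list. In the 940 protein-coding genes listed above 0 in both CirculatingExTcirc libraries, 42 were higher in circulating ex-TRM cells, 30 (3.2%) were higher in circulating ex-Tcirc cells, and 19 were both (45.2% and 63.3% of each list). Of the 42, 38 (90.5%) had the same sign in ex-Tcirc cells, beside 54.4% of all 940. On the tissue side of these 940 genes the lists held 11 and 26 genes with 2 in common (18.2% and 7.7%), and 7 of the 11 (63.6%) had the same sign in ex-Tcirc cells, beside 45.6% of all 940. Over all 3029 genes, 751 (24.8%) were higher in tissue ex-Tcirc cells and held 85 of the 129 genes higher in tissue ex-TRM cells (65.9% of the 129 and 11.3% of the 751), but 469 genes used were at 0 in both sparse CirculatingExTcirc libraries.

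A tissue library of similar depth to the circulating one gave a further comparison. TissueExTcirc replicate 1 was at least 2-fold below both tissue ex-TRM libraries for 213 of the 3029 genes (7.03%) and at least 2-fold above both for 39 (1.29%). It shared 31 of the 129 genes lower in circulation (24%) and 6 of the 132 genes higher in circulation (4.5%). Among protein-coding genes, 20 of the 51 on the tissue side (39.2%, beside 8.25% of all 2157) and 0 of the 76 on the circulating side were shared. However, only 1 of the 2157 protein-coding genes (0.05%) was at least 2-fold above both tissue ex-TRM libraries in this shallow tissue library. Sharing 0 of the 76 was therefore close to settled in advance, and nothing is concluded from it. The part of depth was not tested.

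Genes at the edge of the rules were as follows. On the tissue side Syne3 lay just inside the 2-fold limit, with a log2 gap to the nearer tissue library of 1.02, and Dusp6 just outside at 0.98. On the circulating side Tigit lay inside at 1.002 and Add3 outside at 0.9998. Tcirg1, at a mean of 20.02 FPKM, was the last gene past the minimum.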

How the data were processed

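RNA of 8 libraries was analysed. The values are FPKM as the authors deposited them, per the file headers, 1 table per library; mm10, StringTie 3.0.1, HISAT2 2.2.1, Trim Galore 0.6.7 and SAMtools 1.15 appear, with no roles, in the submitters' processing notes, as do HOMER 4.11 and MACS2 2.2.7.1. Annotation, strand setting, filters and read totals were not given in the sources used here, so depth is known only in relative terms. FPKM of rows with the same gene name were summed, and 2831 of 3029 names used matched the RefSeq gene table (GRCm38.p6).

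Genes with a mean of at least 20 FPKM over TissueExTRM replicates 1 and 2 and CirculatingExTRM replicate 2 were compared on log2(FPKM + 1), which understates the change of low genes; fold ratios in the text are of FPKM. Past the fold means at least 2-fold outside both tissue libraries. limma 3.58.1 (R 4.3.3) with Benjamini-Hochberg adjustment fitted 4 groups of 7 libraries without CirculatingExTRM replicate 1. A trial on simulated data took its means and spread from the tissue libraries alone. It therefore does not show how the fit behaves with the sparse CirculatingExTcirc libraries. The limma test compares single libraries on 1 side and cannot weigh variation among circulating ex-TRM samples. Genes named include those among the 15 largest past-fold differences on each side with at least 1 FPKM in all 3 libraries. Symbols of predicted genes, pseudogenes, small RNAs, receptor segments and mitochondrially encoded genes were left out there. Also named are genes listed at 0, list members past the fold and genes fixed by name. Further genes are given for contrast and were chosen after their values were seen. Some results are not reported here. Members and lists were chosen with earlier results of these data known. Other minimums, pseudocounts, scalings, folds and left-out libraries were tried.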

Additional observations from a re-analysis of the deposited data

Results flagged for a closer look

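In limma's test of whether the tissue-minus-circulating difference is itself different between ex-TRM and ex-Tcirc cells, 443 of 3029 genes (14.6%) had an adjusted p under 0.05, of which 434 were listed at 0 in both sparse CirculatingExTcirc libraries, where a pair of zeros gives no spread. Among 1539 genes above 0 in all 7 libraries 0 were called (limma, 68 at an unadjusted p under 0.05), and 0 of 3029 were called with all 8 libraries (5 unadjusted). Of the genes named in the text, those past this test, with the log2 difference between the 2 contrasts (ex-TRM minus ex-Tcirc), were Hnrnpll (-2.61), Akap8l (-3.36), AF357399 (-3.72), Rps29 (-4.68), Vsir (-4.86), Il1rl1 (-5.32), Cxcr6 (-5.14), Csf2 (-5.04), Syne3 (-3.62) and Dusp6 (-3.61). Ptprcap had a value of 5.05, being listed at 0 in all 4 ex-Tcirc libraries.

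Sap25 and S100a6 had differences of opposite sign in the 2 kinds of cells, with every library of a group on its own side. By limma's test of the difference neither passed (adjusted p = 0.0577 for Sap25 and 0.776 for S100a6). Sap25, a Sin3-associated protein, was at 26.8 and 45.1 FPKM in tissue ex-TRM cells and 2.47 FPKM in circulating ones (log2 difference 3.37), but at 1.198 and 3.79 against 26.7 and 173 FPKM in ex-Tcirc cells. S100a6, a calcium-binding protein, was at 52.4 and 56.6 against 135 FPKM in ex-TRM cells (-1.29) and at 52.2 and 68.03 against 47.8 FPKM and 0 in ex-Tcirc cells. Its sign in ex-Tcirc cells thus rests on 47.8 against 52.2 FPKM and on a 0 in a sparse library, and no reversal is concluded.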

How the results depend on the processing

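The counts of genes past the fold, 129 in tissue and 132 in circulation, became 451 and 429 with a minimum of 5 FPKM, 63 and 53 with 50 FPKM, and 3156 and 2137 with no minimum. They became 313 and 425 at 1.5-fold, 30 and 39 at 4-fold, and 51 and 76 among protein-coding names (added after seeing the data). Leaving out a TissueExTRM library gave 147 (without replicate 1) and 210 (without replicate 2) genes in tissue and 170 and 202 in circulation. Pseudocounts of 0.1 and 5, other scalings and the highest value per name kept each count within 1.5 times. Signs were compared for the genes named only. None of those past the fold changed sign under any alternative run, which lying 2-fold outside both tissue libraries made all but certain. Of other genes named, Itgal and Cd3e changed sign under both other scalings and without TissueExTRM replicate 1, Il7r without replicate 1, and Itgb2 and Pcna without replicate 2, all from differences of at most 0.07 in size.

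limma called 0 genes for ex-TRM cells, 268 with the 3 ex-TRM libraries alone, and between 0 and 44 when 1 of the other 6 libraries was left out: 2 and 3 without TissueExTRM replicate 1 or 2, 0 and 1 without TissueExTcirc replicate 1 or 2, 36 and 44 without CirculatingExTcirc replicate 1 or 2. The test of the difference between cell kinds called 443, 2334 with no minimum, 0 with all 8 libraries, 0 above 0 in all 7 libraries, and between 339 and 2081 when 1 library was left out (2081 without CirculatingExTcirc replicate 1, 697 without replicate 2). The causes were not tested.

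The replicate block gave 0 calls for ex-TRM cells (62 at an unadjusted p under 0.05) and 388 for the difference. Deviations of same-numbered libraries correlated at 0.041, -0.065 and -0.038 across 3029 genes. CirculatingExTRM could not be included, and these values cannot tell whether same-numbered libraries shared animals or batches. No value can be had without CirculatingExTRM replicate 2. With 1 circulating library of 25.2% relative depth, genes listed at 0 there may be present below what it could show.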

Other observations

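Of 53 segment names used (271 in the files), 4 (Traj1, Traj7, Traj18 and Traj22) were higher in tissue, beside 4.26% of all genes, and none in circulation, and 40 differences were positive with a median of 0.38. With no minimum, 41 of 188 segments (21.81%) were past the fold in tissue and 3 in circulation, beside 7.57% and 5.12% of all names. The constant region Trac was at 753 and 653 FPKM in tissue and 537 FPKM in circulation, and Trbc1 at 2788 and 2714 against 3089 FPKM, neither past the fold.

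Of 314 pseudogene names used, 38 were higher in circulation and 1 in tissue, beside 4.36% and 4.26% of all genes, and their median was -0.65. Of the 314, 54 had a tissue mean under 20 FPKM, and with no minimum 452 of 7202 (6.28%) were past the fold in circulation, close to the 5.12% of all names, and 161 (2.24%) in tissue. Rps18-ps6 was listed at 0 in both tissue ex-TRM libraries and at 237 FPKM in circulation, with 103 FPKM and 0 in TissueExTcirc and 180.4 and 17.4 FPKM in CirculatingExTcirc. Gm15564 was at 1026 FPKM in TissueExTRM replicate 1 and at 0 in the other libraries. Both were chosen after their values were seen. Macrophage and alveolar markers were highest in CirculatingExTcirc replicate 1, where 14 macrophage and monocyte markers summed to 1185 FPKM and 12 alveolar markers to 622.5 FPKM, Sftpc alone giving 421 FPKM.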
